A study of Mus musculus with 24 samples.

Results

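Genes of cholesterol and fatty acid synthesis were followed in myeloid-derived suppressor cells (MDSCs), immature myeloid cells that build up with tumours and dampen T cell responses. The set held 33 genes, taken by name from the pathways that the transcription factors SREBP and LXR control, and Scd1 was among them. All 33 were found among the 23479 genes of the deposited table, 32 under their own symbol and 1, Msmo1, under the older symbol Sc4mol. All 33 passed the filter on low values in each comparison.

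The cells came from spleens of mice that carried established B16 melanomas, a transplantable mouse tumour, of more than 25 mm2. Of the 8 groups of 3 libraries, 4 held monocytic cells (M-MDSC) and 4 held polymorphonuclear cells (PMN-MDSC). In each cell type, lymphodepleted (LD) and untreated (UT) mice of the IL-6 knockout label (KO, strain B6.129S2-Il6tm1Kopf/J) were set beside LD and UT mice of the wild-type label (WT, strain C57BL/6). Lymphodepletion consisted of cyclophosphamide and fludarabine, and spleens were taken 7 days after treatment. The KO allele is a germline change, so it is carried by every cell of the animal and not by myeloid cells alone. Cells were sorted to a purity above 99%, and libraries were made from 100 ng of total RNA. The design text gives 3 mice per group except for the lymphodepleted KO group, where it states no number, so p-values measure the spread between libraries, which is a spread between mice where the text says so.

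Reads per library numbered 7237462 to 11193088 in the 12 M-MDSC libraries and 3249647 to 9999731 in the 12 PMN-MDSC libraries. Il6 ran against the labels, with 16.2 to 220 normalized counts in KO-labelled libraries, against 0 to 7.20 in WT-labelled ones. Directions between genotypes are therefore directions between labels. Monocyte markers (8 genes) summed to 44000 to 66230 normalized counts in M-MDSC libraries, against 2557 to 6869 in PMN-MDSC libraries. Neutrophil markers (9 of 10 genes in the table) summed to 3787 to 51870 in M-MDSC libraries, against 143000 to 603200 in PMN-MDSC libraries. In both of these lists the sorted types differed in the way their names say. Primary granule genes did not: with LD they summed to 5144 to 13330 in KO-labelled M-MDSCs, against 134.5 to 705.5 in PMN-MDSCs. Under the WT label they summed to 4306 to 15310, against 629.2 to 2545, and in UT libraries the cell types overlapped. In WT_LD_M replicate 1 the neutrophil sum was 51870, against a monocyte sum of 64890. The libraries are bulk samples, in which fewer cells of a type and less RNA per cell cannot be told apart.

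Cells keep cholesterol within limits through a pair of opposed programmes. When membrane cholesterol is low, SREBP2 (encoded by Srebf2) and SREBP1 (Srebf1) are released from the endoplasmic reticulum, where INSIG proteins otherwise hold them, and switch on the enzymes of cholesterol and fatty acid synthesis. When oxidized cholesterol derivatives accumulate, the nuclear receptor LXR (LXR alpha is encoded by Nr1h3) switches on the export pumps ABCA1 and ABCG1, the ubiquitin ligase MYLIP, which removes lipoprotein receptors, and, together with SREBP1, desaturation of fatty acids by SCD1. In macrophages the LXR side is known for lipid export and for restraining inflammatory genes.

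Promoters are shown for a gene of each programme, since Abca1, on the LXR side, was lower after lymphodepletion and Hmgcs1, on the SREBP side, was not called. Sequences run from 250 bases before to 50 bases after a transcript start and are RefSeq's, build GRCm38.p6. That start need not be the outer end of the gene: in Abca1, Fasn and Srebf1 it lies inside the annotated gene span. Entries were found for 25 of the 33 genes, and a gene with several windows, such as Srebf1 with 3, was counted when any held a match. Abca1 lies on the minus strand (chr4:53159846-53160145), and capitals mark a spaced repeat of the kind LXR binds. Hmgcs1 lies on the plus strand (chr13:119690101-119690400), and capitals mark a sterol regulatory element core, the site SREBP binds, and CCAAT boxes.
Abca1: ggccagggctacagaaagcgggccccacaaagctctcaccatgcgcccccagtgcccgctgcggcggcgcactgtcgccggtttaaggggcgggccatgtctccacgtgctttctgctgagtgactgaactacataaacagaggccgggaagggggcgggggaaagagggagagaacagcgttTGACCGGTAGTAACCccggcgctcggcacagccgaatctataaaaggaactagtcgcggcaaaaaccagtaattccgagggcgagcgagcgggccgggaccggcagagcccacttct
Hmgcs1: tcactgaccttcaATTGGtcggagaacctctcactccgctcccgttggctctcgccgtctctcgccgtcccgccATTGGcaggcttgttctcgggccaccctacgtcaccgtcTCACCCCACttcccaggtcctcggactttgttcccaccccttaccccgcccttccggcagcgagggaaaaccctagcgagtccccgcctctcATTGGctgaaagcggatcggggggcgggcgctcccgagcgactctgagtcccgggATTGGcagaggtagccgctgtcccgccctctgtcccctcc
The sterol regulatory element core, searched on both strands as TCACNCCAC, was found in 1 of the 25 promoters (Hmgcs1, 137 bases before the transcript start), against 1.44% of 27025 genes with a promoter in the table. The CCAAT box was found in 19 of 25, or 76%, against 41.1% of all genes. The spaced repeat, searched on both strands as GGTNA, 5 bases of any kind and GGTCA, was found in 3 of 25, against 0.226% of all genes, but its letters were chosen after the Abca1 promoter had been read. The 15 bases at Abca1 (chr4:53159948-53159962), Fasn (chr11:120824758-120824772) and Srebf1 (chr11:60210639-60210653) are printed as the letters run, which is opposite to the gene, and all their bases are in capitals.
Abca1: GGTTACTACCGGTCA
Fasn: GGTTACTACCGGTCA
Srebf1: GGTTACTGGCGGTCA
Abca1 and Fasn carried the same 15 bases, 67 to 53 bases before the transcript start of the window in Abca1 and 225 to 211 bases before it in Fasn, in both genes inside the gene span. A match is a description of letters and not of binding.

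After lymphodepletion Scd1 fell in both cell types and under both labels, though the call in KO-labelled PMN-MDSCs depended on the setting, and the LXR-responsive genes Abca1 and Mylip fell in M-MDSCs of both labels. Synthesis genes did not move as a block. In WT-labelled M-MDSCs the polyunsaturated fatty acid desaturases Fads1 and Fads2, the desaturase Scd2, Fasn, Fdps and Stard4 rose, and none of these was called under the KO label. A gene is called when its limma adjusted p over all genes tested was under 0.05, and changes are log2 fold changes ± standard error of normalized count + 1, LD over UT, with 3 libraries in each group.

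In KO-labelled M-MDSCs 3 of 33 genes (9.09%) were called, 0 higher and 3 lower, where 11.6% of the 11570 genes tested were called, 6.11% higher and 5.52% lower. The median of the 33 was −0.25, against −0.02 over all genes. In WT-labelled M-MDSCs 9 of 33 (27.3%) were called, 6 higher and 3 lower, where 18.3% of all genes were called, 9.52% higher and 8.82% lower. The median was 0.15, against −0.07 over all genes, and 25 of 33 values lay above 0. With all 24 libraries fitted together, the WT calls of Fads2, Fasn, Fdps, Stard4, Abca1 and Mylip were lost. The WT count was then 3, with 2 higher (Fads1 and Scd2) and 1 lower (Scd1). Under the KO label it was 6 without KO_LD_M replicate 3 and 5 without KO_UT_M replicate 3. The number of all genes called in these refits is not given here, so the shifts cannot be read as particular to the 33.

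In KO-labelled PMN-MDSCs 1 of 33 genes was called, lower, where 0.224% of the 12971 genes tested were called. In WT-labelled PMN-MDSCs 5 were called, 1 higher and 4 lower, where 10.9% of all genes were called, 4.14% higher and 6.73% lower. Here the median over all genes was itself −0.20, against 0.39 for the 33, and with TMM scaling of the recovered reads the medians were −0.005 over all genes and 0.64 for the 33. The share of all calls that were higher was 38.1%, against 61.7% with that scaling, while edgeR's calls among the 33 were 1 higher and 3 lower. The WT count was 2 without WT_UT_PMN replicate 1 or replicate 2 and 3 without WT_UT_PMN replicate 3 or WT_LD_PMN replicate 3, and it was 9 without WT_LD_PMN replicate 1. Here too the number of all genes called in each refit is not given, so these shifts cannot be read as particular to the 33.

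**Figure D1:**
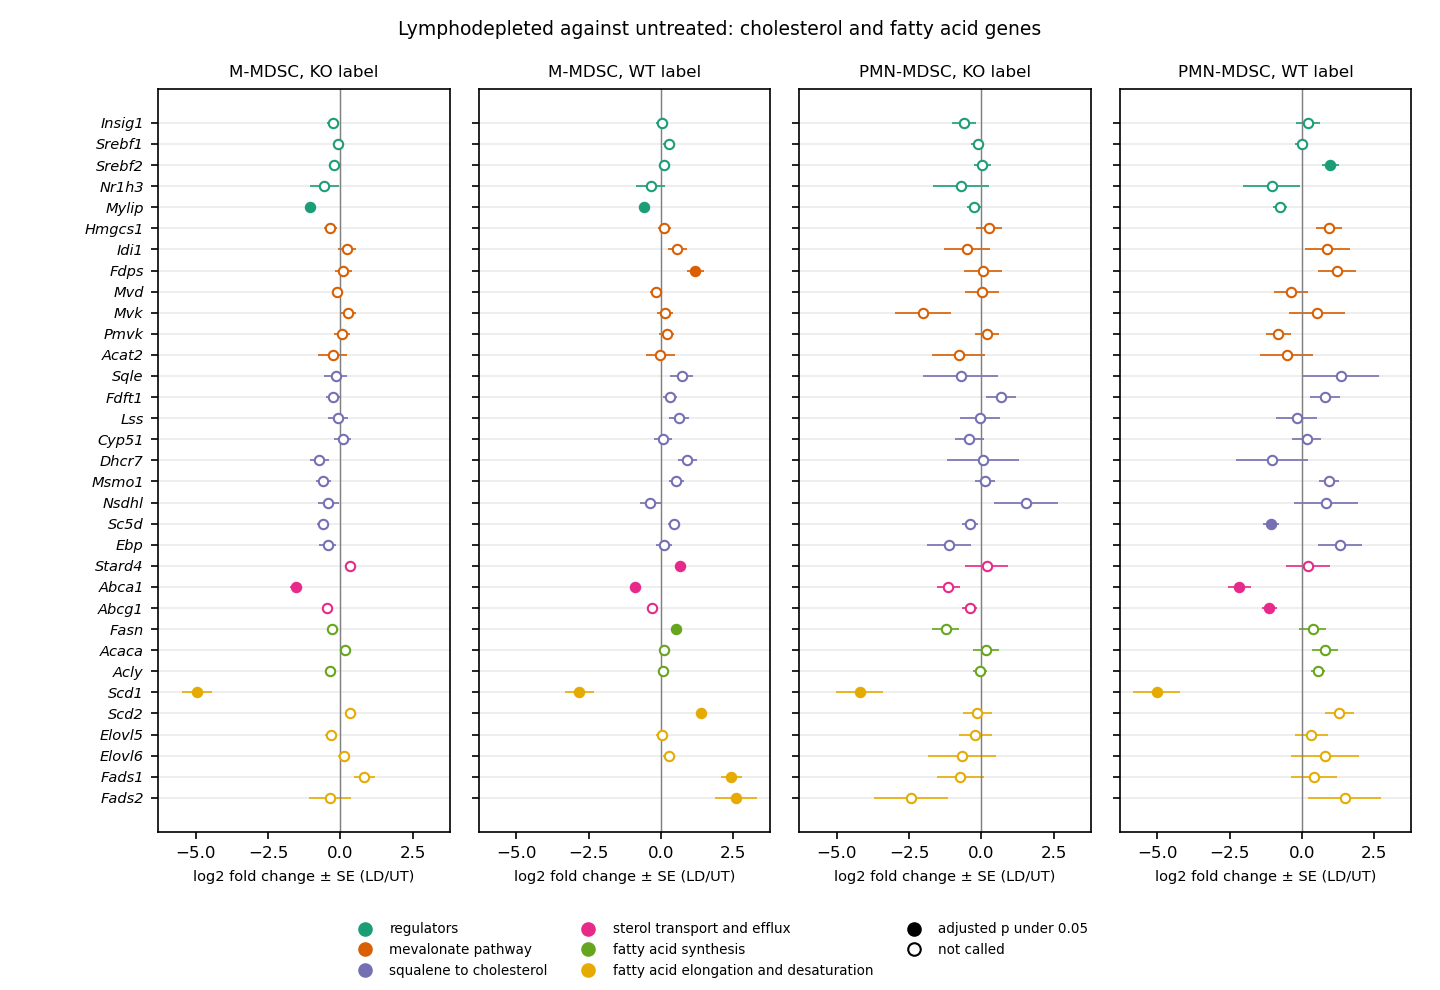
Log2 fold change, LD over UT, ± standard error from limma for the 33 genes in rows, in M-MDSCs and PMN-MDSCs of the KO and WT labels (columns), coloured by role, with filled points for adjusted p under 0.05. Scd1 lies farthest left in all 4 panels, between −5.02 and −2.82, and filled points right of 0 stand in the WT panels.

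Scd1 encodes stearoyl-CoA desaturase, which makes monounsaturated from saturated fatty acids (chromosome 19, 44394450 to 44407709). In KO-labelled M-MDSCs it had 4.75, 1.62 and 9.05 normalized counts in LD libraries, against 232, 162 and 121 in UT libraries. In WT-labelled M-MDSCs it had 12.8, 5.42 and 21.6 in LD libraries, against 104, 74.9 and 87.8 in UT libraries. All LD libraries lay below all UT libraries under both labels. The fold change was −4.97 ± 0.51 under the KO label (31.3-fold lower, adjusted p 0.000139) and −2.82 ± 0.51 under the WT label (7.08-fold lower, adjusted p 0.00181), and both calls held in all 6 fits that left out 1 library.

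PMN-MDSCs showed the same separation of Scd1. KO-labelled libraries had 14.3, 9.34 and 11.4 normalized counts with LD, against 277, 336 and 133 in UT libraries. WT-labelled libraries had 0, 14.8 and 9.18 with LD, against 241, 131 and 172 in UT libraries. The 0 came from the shallowest library, where 1 read is worth 3.21 normalized counts and a count of 0 allows up to 9.63, counting error only. The change was −5.02 ± 0.82 under the WT label (adjusted p 0.00781), −3.80 without that library and −5.79 without WT_LD_PMN replicate 2. Under the KO label it was −4.22 ± 0.82 (adjusted p 0.0485), and this call was lost in each of the 6 fits that left out 1 library (adjusted p 0.0844 to 0.29). It was also lost with a pseudocount of 0.5, with the replicate block and without the 3 shallowest PMN-MDSC libraries (adjusted p up to 0.121), while on the recovered reads edgeR (adjusted p 0.00539) and DESeq2 (adjusted p 5.07e-13) called Scd1.

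Abca1, the pump that loads cholesterol onto apolipoproteins (chromosome 4, 53030789 to 53159988), was lower after LD in M-MDSCs of both labels. KO-labelled M-MDSCs had 173, 106 and 127 normalized counts with LD, against 377, 408 and 385 in UT libraries. WT-labelled M-MDSCs had 140, 104 and 128 with LD, against 208, 249 and 236 in UT libraries. The LD levels of the labels lay over each other, and the UT levels did not. It fell by 1.55 ± 0.19 under the KO label (adjusted p 0.000313) and by 0.90 ± 0.19 under the WT label (adjusted p 0.00457).

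In PMN-MDSCs Abca1 had 239, 171 and 421 normalized counts with LD, against 529, 502 and 698 in UT libraries of the KO label. Under the WT label it had 122, 267 and 77.1 with LD, against 646, 635 and 557 in UT libraries. No LD library reached a UT library of its label. The gene was called under the WT label (−2.16 ± 0.39, adjusted p 0.00781) and not under the KO label (−1.14 ± 0.39, adjusted p 0.284).

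Abcg1 encodes the pump that passes cholesterol to high-density lipoprotein (chromosome 17, 31057694 to 31117984). In WT-labelled PMN-MDSCs it had 1146, 1097 and 707 normalized counts with LD, against 2191, 2287 and 1837 in UT libraries, without overlap. It fell by 1.12 ± 0.25 there (adjusted p 0.0163), a call lost without WT_UT_PMN replicate 1 or replicate 2 (adjusted p up to 0.0776). KO-labelled PMN-MDSCs had 1259, 849 and 1761 with LD, against 1620, 1601 and 1696 in UT libraries, and the groups overlapped (−0.41 ± 0.25, adjusted p 0.636). In M-MDSCs Abcg1 had 522, 348 and 529 with LD, against 722, 723 and 484 in UT libraries of the KO label. WT-labelled M-MDSCs had 653, 600 and 588 with LD, against 824, 743 and 710 in UT libraries. Neither difference in M-MDSCs was called (−0.46 ± 0.18 with adjusted p 0.118 under the KO label, −0.30 under the WT label).

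Mylip encodes the ligase that marks lipoprotein receptors for degradation (chromosome 13, 45389742 to 45411940). It had 375, 322 and 261 normalized counts with LD, against 604, 718 and 644 in UT libraries of KO-labelled M-MDSCs. In WT-labelled M-MDSCs it had 322, 339 and 316 with LD, against 515, 466 and 470 in UT libraries. The groups did not overlap under either label. Mylip fell by 1.04 ± 0.14 under the KO label (adjusted p 0.000689) and by 0.57 ± 0.14 under the WT label (adjusted p 0.012), the second lost without WT_UT_M replicate 1 (adjusted p 0.0536). In PMN-MDSCs it was called under neither label. KO-labelled libraries had 1429, 1065 and 1524 with LD, against 2013, 1370 and 1436 in UT libraries, which overlapped. WT-labelled libraries had 1538, 1216 and 794 with LD, against 1822, 1769 and 2181 in UT libraries, which did not (−0.75 ± 0.25, adjusted p 0.0603).

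**Figure D2:**
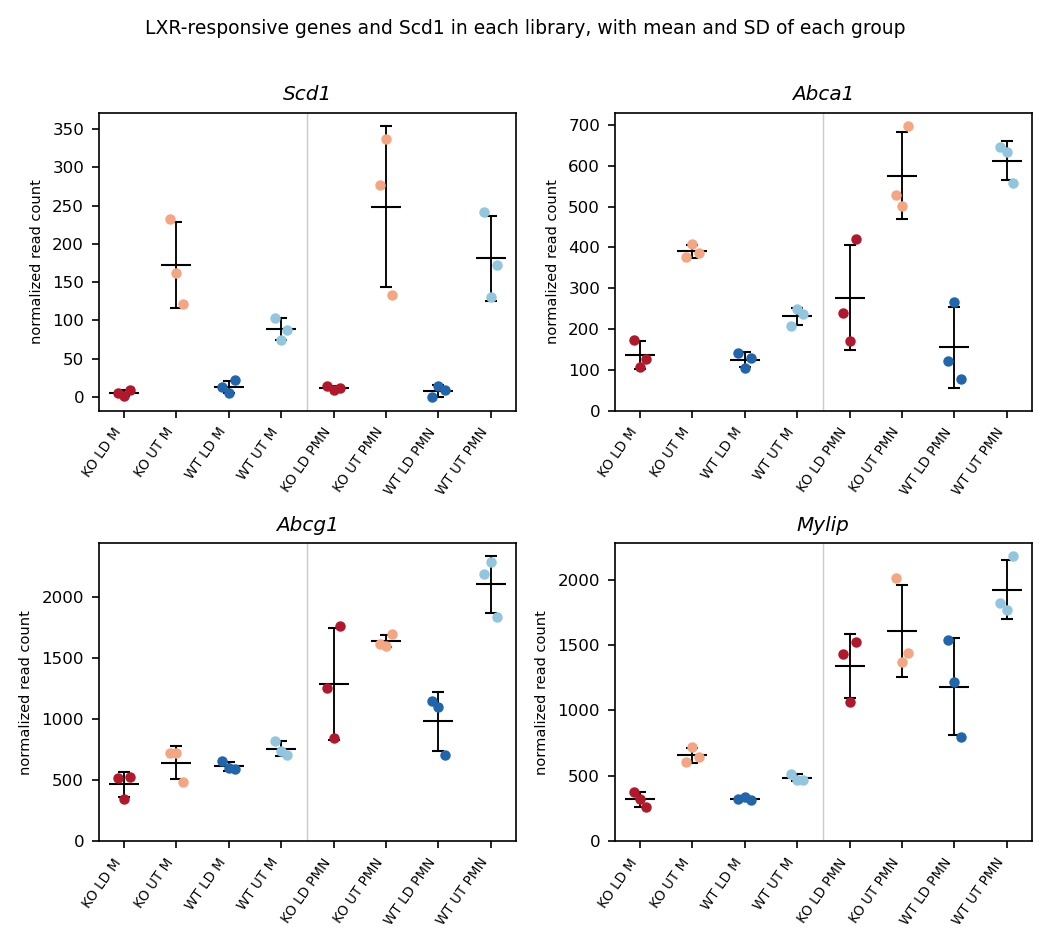
Normalized read counts of Scd1, Abca1, Abcg1 and Mylip as 1 point per library, with bars for group mean and SD (n = 3), on linear axes from 0, LD left of UT within each label. Scd1 lies between 0 and 21.6 in all LD libraries and between 74.9 and 336 in all UT libraries.

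Nr1h3, the gene of LXR alpha itself, was called in none of these comparisons. KO-labelled M-MDSCs had 49.4, 31.6 and 24.7 normalized counts with LD, against 98.0, 65.4 and 19.7 in UT libraries. WT-labelled M-MDSCs had 74.3, 65.8 and 32.8 with LD, against 65.2, 56.6 and 90.6 in UT libraries. Groups overlapped under both labels. PMN-MDSCs had 31.6, 10.2 and 3.10 with LD, against 27.2, 37.3 and 4.95 in UT libraries of the KO label. WT-labelled PMN-MDSCs had 25.7, 24.1 and 10.1 with LD, against 46.5, 13.2 and 95.8 in UT libraries, again overlapping.

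The SREBP genes and their brake were called in neither label of M-MDSCs. Srebf1 had 471, 337 and 532 normalized counts with LD, against 535, 453 and 411 in UT libraries of the KO label. In WT-labelled M-MDSCs it had 457, 491 and 673 with LD, against 498, 408 and 420 in UT libraries. The groups overlapped under both labels. Insig1, which retains SREBPs in the endoplasmic reticulum and is itself an SREBP target, had 298, 220 and 331 with LD, against 416, 356 and 247 in UT libraries of the KO label. WT-labelled M-MDSCs had 360, 354 and 278 with LD, against 291, 316 and 359 in UT libraries. Neither gene was called.

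Srebf2 had 1125, 882 and 1100 normalized counts with LD, against 1365, 1256 and 979 in UT libraries of KO-labelled M-MDSCs. In WT-labelled M-MDSCs it had 1121, 1340 and 1197 with LD, against 1118, 1181 and 1117 in UT libraries. These groups overlapped and were not called. In WT-labelled PMN-MDSCs Srebf2 had 767, 816 and 1358 with LD, against 473, 484 and 470 in UT libraries, and rose by 0.99 ± 0.28 (adjusted p 0.0372). This call was lost without WT_LD_PMN replicate 3 and without each of the 3 UT libraries (adjusted p up to 0.132). KO-labelled PMN-MDSCs had 512, 901 and 568 with LD, against 438, 821 and 674 in UT libraries, which overlapped.

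In PMN-MDSCs Srebf1 had 230, 259 and 338 normalized counts with LD, against 245, 311 and 348 in UT libraries of the KO label. WT-labelled PMN-MDSCs had 337, 362 and 349 with LD, against 388, 355 and 313 in UT libraries. The groups overlapped under both labels. Insig1 had 68.3, 102 and 49.5 with LD, against 91.5, 116 and 119 in UT libraries of the KO label. WT-labelled PMN-MDSCs had 64.2, 134 and 99.2 with LD, against 105, 87.6 and 60.9 in UT libraries. Neither gene was called.

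Among the fatty acid genes, Scd2, a paralog of Scd1 beside it on chromosome 19 (44293676 to 44306864), went the other way under the WT label. KO-labelled M-MDSCs had 542, 500 and 643 normalized counts with LD, against 512, 394 and 441 in UT libraries. WT-labelled M-MDSCs had 613, 839 and 828 with LD, against 328, 229 and 319 in UT libraries. Only the WT-labelled groups stood apart. Scd2 was not called under the KO label (0.32 ± 0.18, adjusted p 0.263) and rose by 1.38 ± 0.18 under the WT label (adjusted p 0.000183), also in all 6 fits that left out 1 library.

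In PMN-MDSCs Scd2 had 107, 136 and 86.7 normalized counts with LD, against 64.3, 220 and 120 in UT libraries of the KO label, which overlapped. WT-labelled PMN-MDSCs had 93.1, 201 and 343 with LD, against 83.2, 56.4 and 89.2 in UT libraries, which did not overlap (1.30 ± 0.50, adjusted p 0.0956). Scd1 and Scd2 are similar in parts of their coding sequence, and how the authors' counting treated reads that match both is not given in the sources used here.

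Fads1 and Fads2 encode desaturases that act in the conversion of dietary to long-chain polyunsaturated fatty acids, and they are neighbours on chromosome 19. Fads1 had 34.2, 51.0 and 64.0 normalized counts with LD, against 34.0, 20.5 and 27.2 in UT libraries of KO-labelled M-MDSCs. WT-labelled M-MDSCs had 39.4, 65.0 and 81.9 with LD, against 7.85, 9.99 and 13.2 in UT libraries. Every LD library lay above every UT library under both labels, under the KO label with 34.2 against 34.0 at the edge. Fads1 was not called under the KO label (0.83 ± 0.37, adjusted p 0.166) and rose by 2.44 ± 0.37 under the WT label (adjusted p 0.000461, 5.43-fold).

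Fads2 was near the detection limit. KO-labelled M-MDSCs had 6.65, 12.2 and 12.7 normalized counts with LD, against 15.7, 12.5 and 11.6 in UT libraries. WT-labelled M-MDSCs had 2.22, 20.1 and 10.3 with LD, against 0, 2.5 and 0 in UT libraries. The groups overlapped under both labels. The WT-labelled LD libraries held 42 reads of the gene in all, against 3 in the UT libraries, a depth-adjusted ratio of 11.6 with a 95% interval of 3.72 to 58.6 that covers counting error only. The fitted change under the WT label was 2.60 ± 0.73 (adjusted p 0.0253). It was 3.35 without WT_LD_M replicate 1, 1.99 without WT_LD_M replicate 2 and 3.20 without WT_UT_M replicate 2, and the call was lost in 4 of 6 fits that left out 1 library. In PMN-MDSCs Fads2 lay between 0 and 30.7 and was not called. KO-labelled LD libraries there held 1 read, against 40 in KO-labelled UT and 42 in WT-labelled LD libraries. The depth-adjusted ratios were 0.0192 (95% interval 0.000475 to 0.114) and 0.0189 (0.000467 to 0.111), counting error only. The KO-labelled UT libraries were uneven, with 0, 9.06 and 30.7 normalized counts.

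Fasn, the multifunctional enzyme that builds palmitate (chromosome 11, 120805958 to 120825166), had 531, 519 and 705 normalized counts with LD, against 753, 636 and 738 in UT libraries of KO-labelled M-MDSCs. WT-labelled M-MDSCs had 555, 554 and 535 with LD, against 389, 360 and 380 in UT libraries. The groups overlapped under the KO label, and LD stood above UT under the WT label. The change was −0.29 ± 0.13 under the KO label (adjusted p 0.182), and Fasn rose by 0.54 ± 0.13 under the WT label (adjusted p 0.0118). In PMN-MDSCs it was not called, with 143, 59.4 and 58.8 with LD, against 171, 260 and 148 in UT libraries of the KO label (−1.23, adjusted p 0.357). WT-labelled PMN-MDSCs had 89.9, 281 and 130 with LD, against 139, 76.8 and 137 in UT libraries, which overlapped. Acly, which makes cytosolic acetyl-CoA, Acaca, which makes malonyl-CoA, and the elongases Elovl5 and Elovl6 were called in none of the 4 comparisons, with values in M-MDSCs from −0.36 to 0.28.

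**Figure D3:**
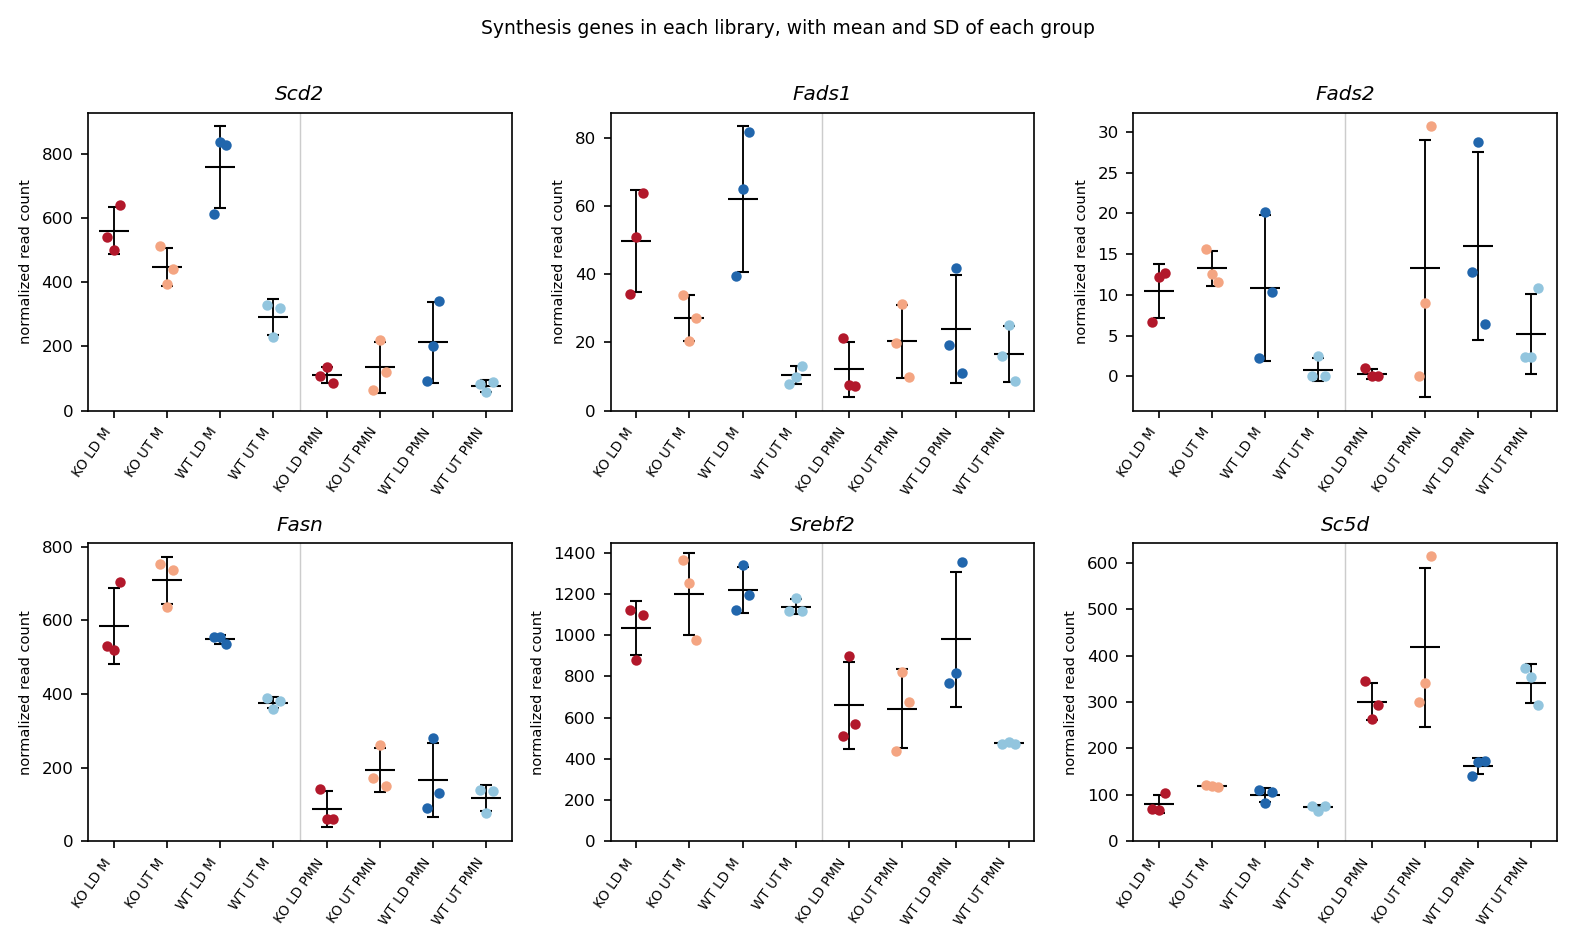
Normalized read counts of Scd2, Fads1, Fads2, Fasn, Srebf2 and Sc5d as 1 point per library, with bars for group mean and SD (n = 3), on linear axes from 0, LD left of UT within each label. Fads1 in WT-labelled M-MDSCs lies between 39.4 and 81.9 with LD, against 7.85 to 13.2 in UT libraries.

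The mevalonate pathway builds the isoprene units of sterols, and 1 of its 7 genes was called in the 4 comparisons. This was Fdps, which makes farnesyl diphosphate. KO-labelled M-MDSCs had 143, 94.0 and 240 normalized counts of it with LD, against 178, 143 and 103 in UT libraries, which overlapped. WT-labelled M-MDSCs had 171, 206 and 224 with LD, against 76.9, 80.8 and 104 in UT libraries, and it rose by 1.20 ± 0.30 (adjusted p 0.0132), a call lost without WT_LD_M replicate 3 or WT_UT_M replicate 1. Acat2, Hmgcs1, Mvk, Pmvk, Mvd and Idi1 lay between −0.35 and 0.56 in M-MDSCs of both labels.

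Hmgcs1, which condenses acetyl units to the precursor of mevalonate, had 314, 210 and 319 normalized counts with LD, against 409, 428 and 247 in UT libraries of KO-labelled M-MDSCs. WT-labelled M-MDSCs had 357, 310 and 242 with LD, against 284, 244 and 300 in UT libraries. The groups overlapped under both labels. In PMN-MDSCs it had 123, 183 and 97.0 with LD, against 76.7, 167 and 99.0 in UT libraries of the KO label. WT-labelled PMN-MDSCs had 93.1, 143 and 317 with LD, against 96.6, 70.8 and 87.1 in UT libraries, also overlapping.

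Of the 9 genes from squalene to cholesterol, limma called 0 in M-MDSCs of either label, with an unadjusted p under 0.05 for 3 under the KO label and 1 under the WT label. DESeq2 called Dhcr7, which performs a last step of the pathway, under the WT label (0.96, adjusted p 0.0367), and edgeR called 0. Their medians were −0.42 under the KO label and 0.45 under the WT label. Sqle, which oxidizes squalene, had 91.2, 52.7 and 70.6 normalized counts with LD, against 139, 89.2 and 38.7 in UT libraries of the KO label. WT-labelled M-MDSCs had 69.9, 72.0 and 60.3 with LD, against 39.3, 27.5 and 61.3 in UT libraries, which overlapped. In PMN-MDSCs it was scarce, with 15.3, 6.79 and 0 with LD, against 22.3, 23.2 and 0 in UT libraries of the KO label. WT-labelled PMN-MDSCs had 93.1, 18.5 and 16.5 with LD, against 6.12, 12 and 19.6 in UT libraries. A count of 0 allows up to 3.10 in the KO_LD_PMN library and 2.97 in the KO_UT_PMN library.

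Sc5d, a late desaturase of the cholesterol pathway (chromosome 9, 42251592 to 42264300), was the called gene among these 9. WT-labelled PMN-MDSCs had 141, 172 and 174 normalized counts with LD, against 373, 354 and 294 in UT libraries, and it fell by 1.06 ± 0.28 (adjusted p 0.0285). The call was lost in 4 of 6 fits that left out 1 library and with edgeR (adjusted p 0.0528). KO-labelled PMN-MDSCs had 345, 264 and 294 with LD, against 299, 340 and 615 in UT libraries, which overlapped. KO-labelled M-MDSCs had 69.3, 67.2 and 103 with LD, against 121, 118 and 116 in UT libraries (−0.59, adjusted p 0.0896). WT-labelled M-MDSCs had 111, 82.8 and 105 with LD, against 76.2, 65.8 and 75.5 in UT libraries, without overlap and without a call. Fdft1, Lss, Cyp51, Msmo1, Nsdhl, Ebp and Dhcr7 were called in none of the 4 comparisons. Stard4, which carries sterol between membranes, had 168, 194 and 174 with LD, against 133, 95.8 and 115 in UT libraries of WT-labelled M-MDSCs, and rose by 0.65 ± 0.18 (adjusted p 0.0206), a call lost in 4 of 6 fits that left out 1 library.

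Other genes of the same pathways were read against the shares of all genes called in M-MDSCs, 11.6% under the KO label and 18.3% under the WT label. Of 22 further sterol genes tested in M-MDSCs, 0 rose and 1 fell under the KO label, and 2 rose and 0 fell under the WT label. Among them were Soat2, which esterifies cholesterol (−2.14, adjusted p 0.0182), under the KO label, and Tmem97 (1.56, adjusted p 0.0396) under the WT label. Of 23 further fatty acid genes, 1 rose and 2 fell under the KO label, and 2 rose and 3 fell under the WT label. Lpin1, a phosphatidate phosphatase, fell under both (−1.41 with adjusted p 0.00151 under the KO label, −1.34 with adjusted p 0.000731 under the WT label). Acss2, which makes acetyl-CoA from acetate, also fell under both (−1.39 with adjusted p 0.0032, and −0.86 with adjusted p 0.0239 under the WT label). Acsl1 rose under the KO label (0.79, adjusted p 0.0128), and Acss1 fell under the WT label (−0.94, adjusted p 0.00403).

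Of 12 further LXR partners and targets tested in M-MDSCs, 0 rose and 2 fell under the KO label, and 1 rose and 4 fell under the WT label. Rxra, the obligate partner of LXR, fell under both (−0.67 with adjusted p 0.0234 under the KO label, −0.68 with adjusted p 0.0156 under the WT label). Arl4c also fell under both (−0.86 with adjusted p 0.017 under the KO label, −0.72 with adjusted p 0.0283 under the WT label). Pltp, a phospholipid transfer protein, fell under the WT label (−1.05, adjusted p 0.0114). In WT-labelled PMN-MDSCs, where 10.9% of all genes were called and 6.73% were lower, Soat2 (−2.31, adjusted p 0.015), Acss2 (−1.67, adjusted p 0.0242) and Rxra (−1.04, adjusted p 0.048) fell. These are single genes of the further lists, whose counts in PMN-MDSCs are not given here.

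Genes of other cell states moved with lymphodepletion in the same libraries. The 20 cell cycle genes summed to 15460 to 34200 normalized counts with LD, against 1838 to 11010 in UT libraries of KO-labelled M-MDSCs, where 19 of 20 rose. In WT-labelled M-MDSCs they summed to 19920 to 33360 with LD, against 1527 to 1799 in UT libraries, and 20 of 20 rose. Neutrophil markers summed to 9532 to 35370 with LD, against 3787 to 5075 in UT libraries of KO-labelled M-MDSCs, and 5 of 9 rose. In WT-labelled M-MDSCs they summed to 12330 to 51870 with LD, against 3918 to 4124 in UT libraries, and 6 of 9 rose. The 8 NK cell markers fell in M-MDSCs of both labels, 8 of 8 in each. Primary granule genes summed to 5144 to 13330 with LD, against 236 to 7723 in UT libraries of KO-labelled M-MDSCs, with 0 of 6 called. In WT-labelled M-MDSCs they summed to 4306 to 15310 with LD, against 47.1 to 134 in UT libraries, and 6 of 6 rose.

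Of the 8 B cell markers, between 4 and 8 fell in each of the 4 comparisons. In M-MDSCs they summed to 126 to 162 with LD, against 918 to 1486 in UT libraries of the KO label, and 8 of 8 fell. WT-labelled M-MDSCs had sums of 93.1 to 123 with LD, against 492 to 581 in UT libraries, and 7 of 8 fell. In PMN-MDSCs the sums were 85.8 to 176 with LD, against 1192 to 2537 in UT libraries of the KO label, and 4 of 8 fell. WT-labelled PMN-MDSCs had 76.2 to 248 with LD, against 1458 to 1748 in UT libraries, and 8 of 8 fell. In WT-labelled PMN-MDSCs 17 of 20 cell cycle genes and 4 of 6 primary granule genes rose, and limma called none of either list under the KO label. No gene of these 5 lists was at 0 in all 3 libraries of a group. The part of these markers in the changes above was not tested.

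Between the genotype labels, M-MDSCs of untreated mice differed in 3 of 33 genes, 3 higher and 0 lower under the KO label, where 4.03% of all genes were called, 2.24% higher and 1.79% lower. Fasn had 753, 636 and 738 normalized counts in KO-labelled, against 389, 360 and 380 in WT-labelled libraries. Its difference was 0.91 ± 0.13 (adjusted p 0.00488), a call lost with all 24 libraries in 1 fit (adjusted p 0.364). The call was kept in all 6 fits that left out 1 library. Abca1 had 377, 408 and 385 in KO-labelled, against 208, 249 and 236 in WT-labelled libraries (0.76 ± 0.19, adjusted p 0.0393), a call lost in each of those 6 fits. Fads2 had 15.7, 12.5 and 11.6 in KO-labelled, against 0, 2.5 and 0 in WT-labelled libraries (3.22 ± 0.73, adjusted p 0.0319, and 3.82 without WT_UT_M replicate 2), a call lost in 5 of 6. On its reads, 60 against 3, the ratio was 15.7 with a 95% interval of 5.11 to 78.

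Values of 29 of the 33 lay above 0 in this comparison, with a median of 0.35, against 0.01 over all genes. In 12 of 33 the KO-labelled libraries lay above all WT-labelled ones, where 16.1% of all genes did so. DESeq2 called 8 of 33 on the recovered reads and edgeR 4, all higher. Over all genes DESeq2 called 714 higher and 357 lower, edgeR 361 and 138, and limma 259 and 207. Of all calls 55.6% were higher, against 72.3% with edgeR and 66.7% with DESeq2. NK cell markers were higher in the same KO-labelled libraries (6399 to 9489 normalized counts in sum, against 1651 to 1934 in WT-labelled ones, 8 of 8 called), as were 5 of 7 T cell markers (839 to 1359, against 210 to 321). Primary granule genes summed to 236 to 7723 in KO-labelled, against 47.1 to 134 in WT-labelled libraries, and 3 of 6 were called higher. The 7723 came from KO_UT_M replicate 3, which also held the largest cell cycle sum (1838 to 11010, against 1527 to 1799). Sums were also higher for B cell (918 to 1486, against 492 to 581), plasma cell (1547 to 2626, against 1190 to 1411) and dendritic cell markers (1300 to 2115, against 1167 to 1175). Monocyte, neutrophil, red pulp macrophage, erythroid and eosinophil, basophil and mast cell sums overlapped. The part of these markers in the differences was not tested.

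In the 3 other comparisons of the labels limma called 0 of 33. In lymphodepleted M-MDSCs 0.207% of all genes were called, and 3 of 33 had an unadjusted p under 0.05, as had 1081 of all 11570 genes. In untreated PMN-MDSCs 0.00771% were called, and 0 of 33 had such a p, against 468 of all 12971 genes. In lymphodepleted PMN-MDSCs 0.0154% were called, and 4 of 33 had such a p, against 1077 of 12971. edgeR and DESeq2 also called 0 of 33 in each.

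**Figure D4:**
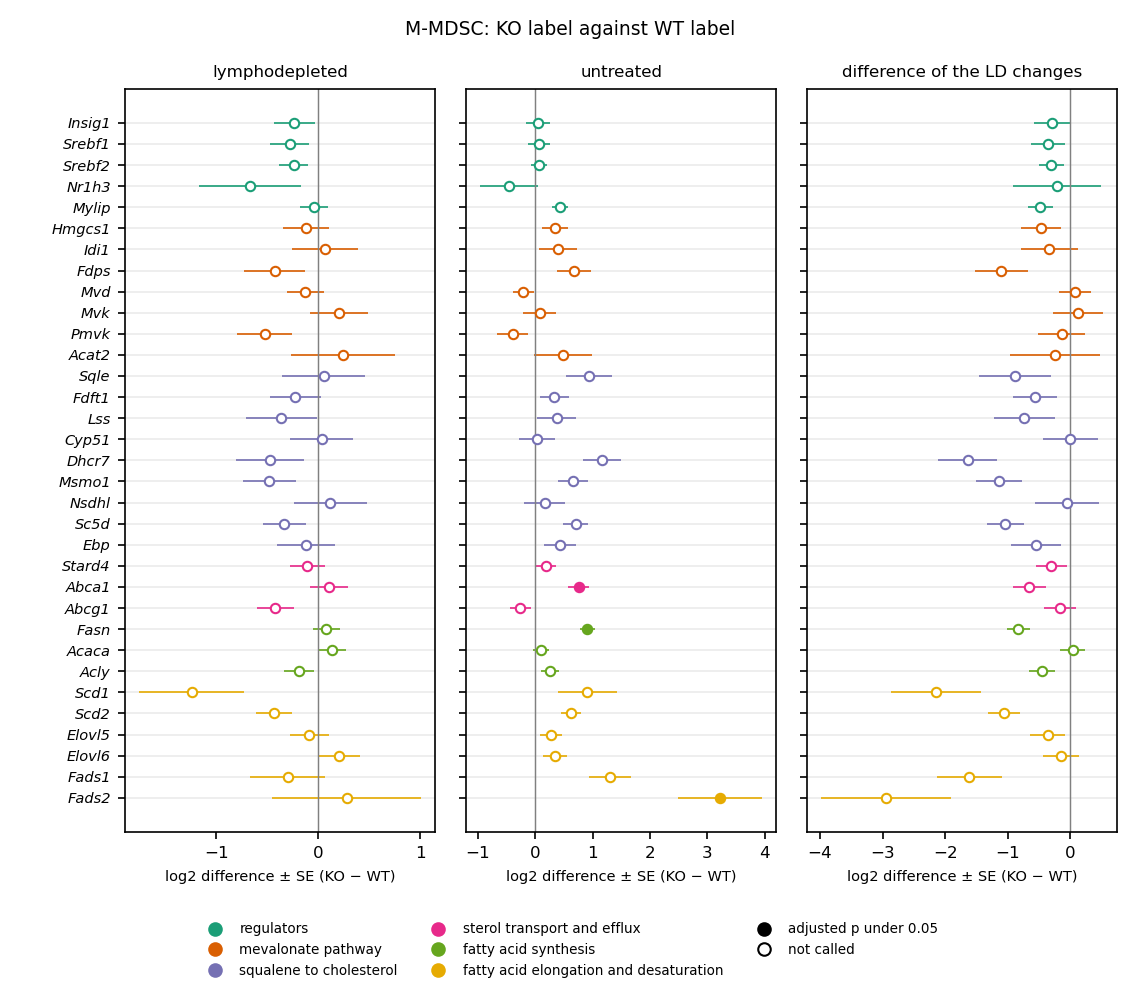
Log2 differences ± standard error for the 33 genes (rows) in M-MDSCs, KO-labelled over WT-labelled, in lymphodepleted and in untreated mice, and the difference between the LD changes of the labels (right), with filled points for adjusted p under 0.05. Untreated values lie above 0 for 29 of 33 genes, and the right panel has 4 of 33 above 0.

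Whether lymphodepletion acted differently under the labels was tested as an interaction, which is built from the same lymphodepleted and untreated libraries as the comparisons above. In M-MDSCs limma called 0 of 33, where 0.00864% of all genes were called, and 11 of 33 had an unadjusted p under 0.05, against 1413 of all 11570 genes. The 11 values were all below 0, among them Fasn (−0.83 ± 0.19, adjusted p 0.285), Scd2 (−1.06 ± 0.25, adjusted p 0.30) and Scd1 (−2.15 ± 0.72, adjusted p 0.335). DESeq2 called Fasn (−0.85, adjusted p 0.0259) and Scd2 (−1.09, adjusted p 0.0244), and edgeR called 0. Over all genes DESeq2 called 21 above 0 and 50 below, and edgeR 0 and 2. In PMN-MDSCs limma, edgeR and DESeq2 called 0 of 33, and 4 of 33 had an unadjusted limma p under 0.05, against 1108 of all 12971 genes. The rises of Scd2, Fads1 and Fasn called under the WT label alone are thus not shown by limma to differ between labels.

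The change with LD differed between the cell types for 1 gene under the WT label, where 0.788% of all genes were called. This was Sc5d, with 0.45 in M-MDSCs and −1.06 in PMN-MDSCs, a difference of 1.51 ± 0.36 (adjusted p 0.0432). The call depended on the setting: quantile normalization and edgeR called 0 of 33 here, and DESeq2 called 1. It was also lost in most fits that left out 1 library. Under the KO label limma called 0 of 33, where 0.0966% of all genes were called, and 2 of 33 had an unadjusted p under 0.05, against 1031 of all 13457 genes, while edgeR and DESeq2 also called 0.

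Compared with PMN-MDSCs, M-MDSCs had higher levels of 9 of the 33 genes in all 4 conditions, most of them synthesis enzymes, while Abcg1, Mylip and Sc5d were lower in all 4. The share of all genes called in the same direction in all 4 was not counted, so these numbers stand without a background. Of the 33 genes, 21 were higher and 5 lower in M-MDSCs of lymphodepleted KO-labelled mice, where 47.4% of all 13457 genes tested were called. In untreated KO-labelled mice 19 were higher and 4 lower, where 43.8% were called. In lymphodepleted WT-labelled mice 12 were higher and 3 lower, where 39.3% were called. In untreated WT-labelled mice 16 were higher and 5 lower, where 50.5% were called. The share of all genes called higher was 23.8%, 20.3%, 19.4% and 22.2% in the same order, and the share called lower was 23.6%, 23.6%, 19.9% and 28.3%. The medians of the 33 were 1.52, 1.43, 1.13 and 1.17, against 0.05, 0.05, 0.07 and −0.08 over all genes.

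The 9 genes higher in M-MDSCs in all 4 conditions were Acaca, Cyp51, Elovl5, Elovl6, Fasn, Fdps, Insig1, Scd2 and Stard4. Fasn was higher by 2.85 and 1.91 in lymphodepleted and untreated KO-labelled mice, and by 1.87 and 1.72 in lymphodepleted and untreated WT-labelled mice. Scd2 was higher by 2.36, 1.90, 2.01 and 1.93 in that order, and Insig1 by 1.98, 1.61, 1.78 and 1.95. Insig1 lay between 220 and 416 normalized counts in all M-MDSC libraries, against 49.5 to 134 in all PMN-MDSC libraries. Elovl6 was higher by 3.49, 2.69, 3.08 and 3.61, and the last was 4.67 without WT_UT_PMN replicate 1 and 2.16 without WT_UT_PMN replicate 3. The first was 2.79 without KO_LD_PMN replicate 2, and the second was 1.99 with no call without KO_UT_PMN replicate 3.

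Among the genes lower in M-MDSCs, Mylip differed by −2.06, −1.27, −1.81 and −1.98 in the same order of conditions. Abcg1 differed by −1.43, −1.37, −0.65 and −1.47, and Sc5d by −1.92, −1.74, −0.70 and −2.21. In lymphodepleted WT-labelled mice the Abcg1 call was lost in 4 of 6 fits that left out 1 library (adjusted p up to 0.116) and with quantile normalization (adjusted p 0.204), and the Sc5d call in 3 of 6 (adjusted p up to 0.121) and with the replicate block (adjusted p 0.053). Mylip lay between 261 and 718 normalized counts in all M-MDSC libraries, against 794 to 2181 in all PMN-MDSC libraries. Pmvk, a mevalonate pathway kinase, was called lower in 3 of the 4. Scd1 was not called in any of the 4, with values from −1.23 to 1.21. Low counts in PMN-MDSC libraries made several values depend on 1 library, such as Sqle in untreated KO-labelled mice, which was 3.27, but 4.01 without KO_UT_PMN replicate 1, 4.04 without KO_UT_PMN replicate 2, and 1.75 with no call without KO_UT_PMN replicate 3.

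**Figure D5:**
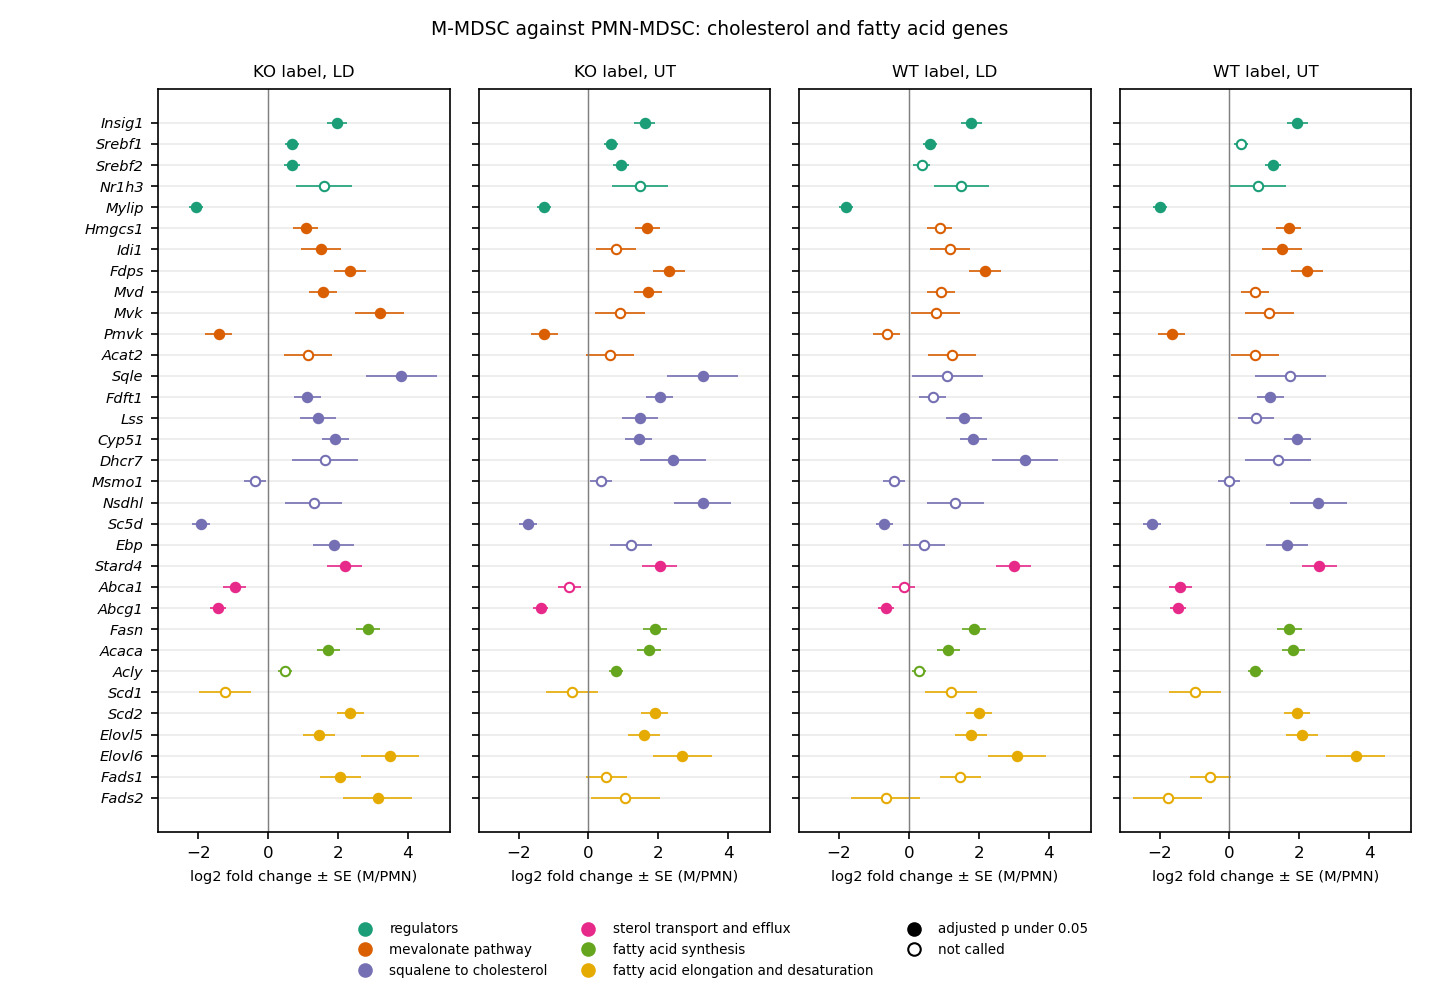
Log2 difference, M-MDSC over PMN-MDSC, ± standard error for the 33 genes (rows) in lymphodepleted and untreated mice of the KO and WT labels (panels), with filled points for adjusted p under 0.05. Fasn, Scd2 and Fdps lie right of 0, and Mylip, Abcg1 and Sc5d lie left of it in all 4 panels.

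Several genes overlap exons of another gene model in the mouse annotation, and the strand setting of the counting is not given in the sources used here. Reads in the shared stretches therefore cannot be told apart from those of the neighbour. This holds for Hmgcs1, Idi1, Fdps, Fdft1, Lss, Cyp51, Srebf1, Scd2, Elovl6 and Nr1h3.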

How the data were processed

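Values were normalized read counts per gene, a signal the authors deposited as 1 table for 24 libraries. The mm10 build, DESeq2, HTSeq 0.6.1 and STAR 2.5.3a are named per the submitters' processing notes. Neither strand setting nor annotation is given in the sources used here. Every value was a whole multiple of 1 read's worth (tolerance 0.001 reads, 100% of values), so reads were recovered for count tests. Read totals per library limit the precision at low counts.

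log2(normalized count + 1) was fitted with limma 3.58.1 (R 4.3.3) on genes that reached 10 normalized counts in 3 or more of the fitted libraries, 1 mean per group, two-sided, with Benjamini-Hochberg adjustment over all genes and a call under 0.05. M-MDSC and PMN-MDSC libraries were fitted apart for LD against UT and for the labels, and all 24 together between cell types. The pseudocount understates changes of low genes. The fit was tested on simulated data. Other settings tried were edgeR 4.0.16 and DESeq2 1.42.0 on the recovered reads, quantile normalization, pseudocounts of 0.5 and 5, no filter, a replicate block, other sample sets and each library left out. Members and lists were chosen with earlier results of these data known. All members are named, with values per library for a fixed list of main regulators, enzymes and efflux genes and for others called at least 2 times or in an interaction, and of further lists the called genes with the 3 smallest adjusted p in a comparison. Some genes of the further lists are not reported here by name.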

Additional observations from a re-analysis of the deposited data

Results flagged for a closer look

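The change of Sc5d with lymphodepletion differed between M-MDSCs and PMN-MDSCs of the WT label, by 1.51 on the log2 scale in the test of the difference itself (limma adjusted p 0.0432). Leaving out 1 library at a time ended the call in 7 of 12 cases (adjusted p up to 0.115).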

How the results depend on the processing

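Of the 107 called values of the 33 genes, 66 kept their call in every fit that left out 1 library and in every other setting, and none changed sign. Most of the 107 were calls between the cell types (26 and 23 in lymphodepleted and untreated KO-labelled mice, 15 and 21 in WT-labelled mice). Among LD calls, those kept throughout were Fads1, Scd1 and Scd2 in WT-labelled M-MDSCs and Abca1, Mylip and Scd1 in KO-labelled M-MDSCs. In WT-labelled PMN-MDSCs they were Abca1 and Scd1. No call between the labels was kept throughout. The count of called genes for LD against UT was 3 in WT-labelled M-MDSCs and 9 in WT-labelled PMN-MDSCs with all 24 libraries in 1 fit. In KO-labelled PMN-MDSCs it was 0 with a pseudocount of 0.5, with the replicate block and with the 3 shallowest PMN-MDSC libraries left out, an alternative chosen after seeing the data. For the labels in untreated M-MDSCs it was 1 with quantile normalization, 8 with DESeq2 and 0 with all 24 libraries. The interaction of label and LD in M-MDSCs gave 2 with DESeq2. The interaction of cell type and LD under the WT label gave 0 with quantile normalization, edgeR, the replicate block or only its own groups fitted. Leaving out 1 library gave 3 to 6 for LD under the KO label and 6 to 9 under the WT label in M-MDSCs, 0 in KO-labelled and 2 to 9 in WT-labelled PMN-MDSCs, 1 to 2 for the labels in untreated M-MDSCs and 0 to 2 for the cell type interaction under the WT label. The cause was not tested. These counts stand without the number of all genes called in the same refit, so they cannot be read as particular to the 33. Replicate numbers were not taken to pair the libraries in the main fits, since the labels state no pairing, also not between the cell types. Whether same-numbered libraries of the cell types share a mouse is thus not known. Correlations of same-numbered deviations ran from −0.228 to 0.22 in M-MDSCs and from −0.183 to 0.24 in PMN-MDSCs. Between the cell types they ran from −0.0833 to 0.221, with 4 of 12 over 0.1, against at most 0.113 for different numbers, and there the replicate block ended the calls of Sc5d in lymphodepleted WT-labelled mice and of Idi1 in lymphodepleted KO-labelled and untreated WT-labelled mice. With the replicate block the LD count was 3 in M-MDSCs of the KO label and 9 in those of the WT label. Depth limits low genes such as Fads2 and Sqle, above all in PMN-MDSC libraries.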
